A study of Mus musculus with 8 samples.

Results

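The interferon-stimulated genes followed here were *Ifit1*, *Ifit3*, *Isg15*, *Irf7*, *Stat2*, *Bst2*, *Oasl2*, *Ifi44* and *Rsad2*. They were chosen by symbol, and all 9 were found among the 40840 genes counted and passed the filter on low counts that left 19104 genes for testing. Transcripts were measured by RNAseq of whole testes from 12-day-old (P12) mice, 4 wild type and 4 *Tra2b-cPEko*, lettered A to D within each genotype. Per the study's methods, wild type controls were Tra2bPE fl/+ and thus carried 1 floxed copy of the *Tra2b* poison exon, an exon whose inclusion targets the transcript for decay. *Tra2b-cPEko* mice carried a floxed and a deleted copy (Tra2bPE fl/-) together with the *Vasa-Cre* transgene, which acts in germ cells, so the somatic cells of these testes kept the floxed copy. All mice were on a C57BL/6J background, to which the FVB-derived *Vasa-Cre* line had been backcrossed. The mice were independent animals, and the methods name the exact age of P12 testes as a possible source of variation in cell types.

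Interferons are secreted proteins that cells release when their sensors meet foreign or misplaced nucleic acid. Type I interferons bind the receptor formed by IFNAR1 and IFNAR2, whose kinases JAK1 and TYK2 act on transcription factors such as STAT2, which joins IRF9 in a complex that binds an element called the ISRE (interferon-stimulated response element) in the promoters of interferon-stimulated genes. Many of these genes are nearly silent in resting tissue and respond strongly, while others are transcribed at a steady level in most cells.

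The ISRE is shown here for the members whose promoters hold it, since it is the shared sequence by which this family is usually recognised. The letters GAAA and GAAA with any 2 bases between them, or TTTC and TTTC so spaced on the other strand, were searched in RefSeq promoter windows from 250 bases before to 50 after each gene's start. The windows come from the GRCm38.p6 table, and each was placed in GRCm39 by an exact match that occurred once. All 9 members matched a window, and 6 of them (66.7%) held the letters, against 3.44% of all 32851 windows and 51.8% of the 56 other type I interferon-stimulated genes with a window. Each line below gives 30 bases of GRCm39 from 5′ to 3′ on the gene's own strand, with the matching bases in capitals.
Ifit1, chr19:34618184-34618213, plus strand: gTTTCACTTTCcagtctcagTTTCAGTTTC
Ifit3, chr19:34560763-34560792, plus strand: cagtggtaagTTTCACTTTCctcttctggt
Ifit3, chr19:34560797-34560826, plus strand: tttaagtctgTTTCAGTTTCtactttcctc
Isg15, chr4:156285328-156285357, minus strand: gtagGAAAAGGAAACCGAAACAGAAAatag
Stat2, chr10:128106135-128106164, plus strand: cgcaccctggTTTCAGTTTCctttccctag
Bst2, chr8:71990224-71990253, minus strand: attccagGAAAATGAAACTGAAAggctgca
Rsad2, chr12:26506552-26506581, minus strand: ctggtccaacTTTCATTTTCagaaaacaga
*Isg15* held 3 overlapping matches and *Bst2* held 2, while *Ifit1* and *Ifit3* held 2 separate matches each. The first matching base lay between 78 (*Isg15*) and 222 (*Stat2*) bases before the start. The letters were not in the windows of *Irf7*, *Oasl2* and *Ifi44*, which says nothing of elements further away or with other letters. The letters TTCNNNGAA, the GAS element of interferon gamma-responsive promoters, were in 1 member window, that of *Bst2*, where they overlapped its ISRE letters, against 8.3% of all windows. A match is a description of the sequence, and the RNAseq does not show whether it was bound.

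None of the 9 genes passed edgeR's test between genotypes. DESeq2 called *Irf7* alone, against 2.79% of all genes to which it gave an adjusted p. *Irf7* and *Rsad2* were higher in all 4 *Tra2b-cPEko* testes than in any wild type testis, by 37.7% and 51.4% in edgeR's fit, but with adjusted p-values of 0.135 and 0.201. Over all tested genes, 8.54% had no overlap between genotypes, and 4.36% were without overlap and higher in *Tra2b-cPEko*. In 7 of the 9 genes the highest of the 8 testes was that of *Tra2b-cPEko* replicate B, by the widest margin in *Ifit1*, *Ifit3* and *Isg15*, whose other values overlapped between genotypes. *Ifi44* overlapped between genotypes and was highest in wild type replicate A. *Stat2*, *Bst2* and *Oasl2*, which were abundant, differed by 3.02%, -5.63% and -1.63% between genotypes.

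Levels are given as CPM, read counts scaled to each library's reads on genes and its TMM factor, and fold changes, standard errors (SE) and 95% intervals come from edgeR's quasi-likelihood fit over all tested genes with Benjamini-Hochberg adjustment. With an adjusted p under 0.05, 30 genes were called over all tested genes (0.157%, with 0.131% higher and 0.0262% lower in *Tra2b-cPEko*), and none of them was a member. At an unadjusted p under 0.05, 2 of the 9 members (22.2%), *Irf7* and *Rsad2*, stood against 15.3% of all tested genes. The same members were those without overlap between genotypes, against 8.54% of all tested genes, both higher in *Tra2b-cPEko*, as were 4.36% of all tested genes, with 4.18% lower. DESeq2 called *Irf7* alone among the members (adjusted p = 0.0386), against 2.79% of the 18149 genes to which it gave an adjusted p. The median log2 fold change was 0.11 over the members and -0.00108 over all tested genes. The mice are independent, but whole testes were sequenced, so more or fewer cells of a type and more or less RNA per cell cannot be told apart in any of these values.

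**Figure D1:**
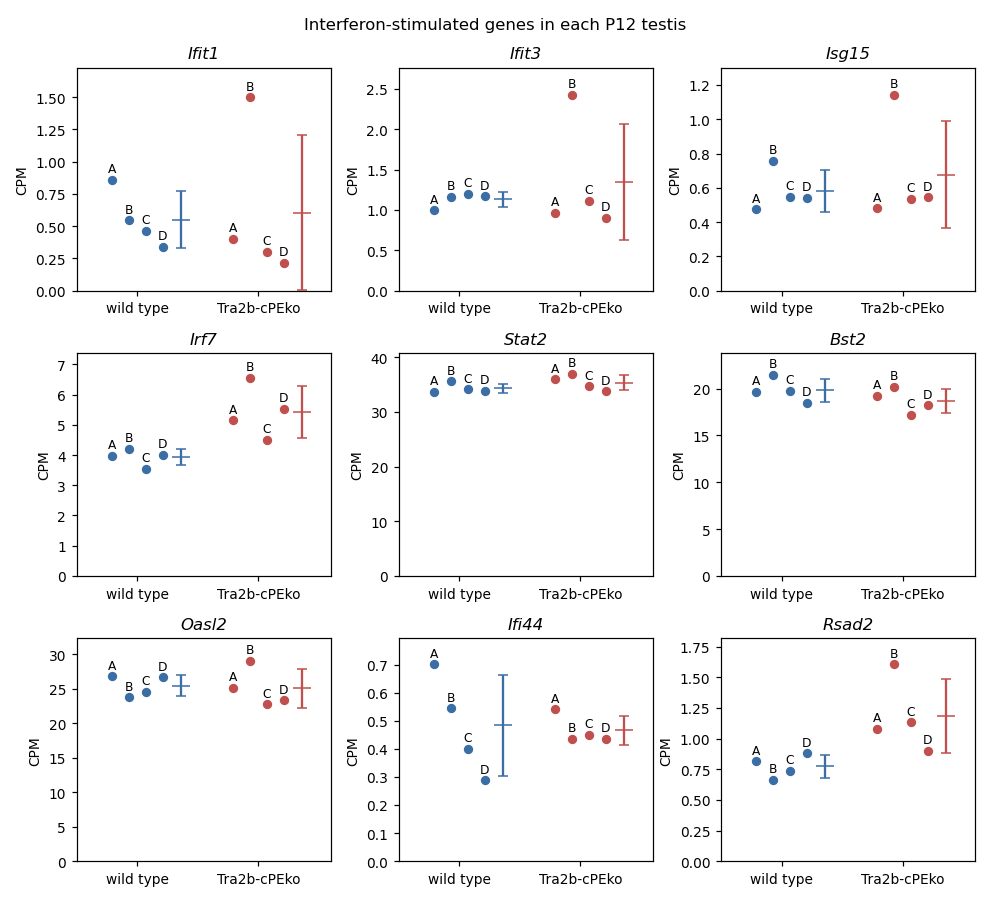
Level of each of the 9 genes in CPM (vertical axes, each from 0) in the 4 wild type (blue) and 4 *Tra2b-cPEko* (red) testes, with the mean and SD of each genotype beside the points and replicate letters above them. *Ifit1*, *Ifit3* and *Isg15* stand out in replicate B of *Tra2b-cPEko*, at 1.498, 2.42 and 1.14 CPM, while *Irf7* and *Rsad2* do not overlap between genotypes.

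Levels between genes were compared per kilobase of the Ensembl canonical transcript, as the mean over the 8 testes. *Bst2* was at 23.9 CPM per kilobase, and its range did not overlap that of any other member. *Oasl2* (8.09) and *Stat2* (7.73) followed with overlapping ranges, and *Irf7* (1.96) stood alone below them. *Isg15* (0.803) and *Ifit3* (0.594) overlapped each other. *Rsad2* (0.258), *Ifi44* (0.162) and *Ifit1* (0.0779) were at the bottom of the order, with each range overlapping the next. The order thus separated 3 abundant genes from 6 at or below 2.74 CPM per kilobase in every mouse, as the plot of levels per kilobase shows. Raw counts were between 668 and 1997 a library for the abundant genes, between 169 and 257 for *Irf7*, and between 8 and 89 for *Ifit1*, *Ifit3*, *Isg15*, *Ifi44* and *Rsad2*. At the lowest of these counts, counting alone gives a coefficient of variation of 35.4% (*Ifit1*), against 2.84% for *Stat2*.

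**Figure D2:**
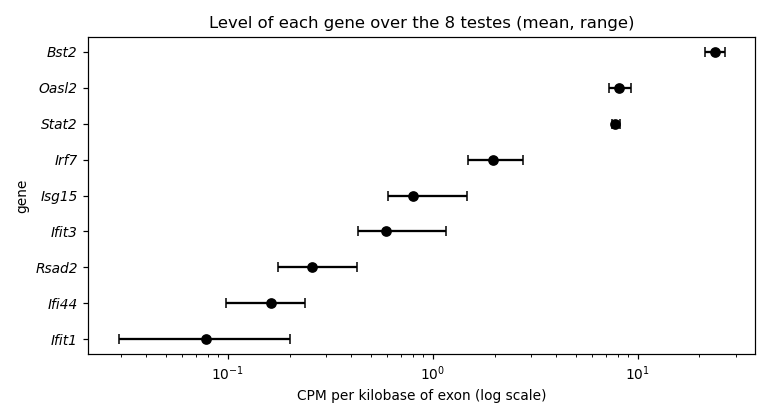
Mean CPM per kilobase of exon (horizontal log axis) of each gene over the 8 testes, with bars from the lowest to the highest mouse. *Bst2* is highest at 23.9 and *Ifit1* lowest at 0.0779 CPM per kilobase.

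*Irf7* (GRCm39 chr7:140842619-140846398, minus strand) encodes the transcription factor that amplifies type I interferon production. It was at 3.98, 4.21, 3.56 and 4.02 CPM in wild type replicates A to D. In *Tra2b-cPEko* replicates A to D it was at 5.15, 6.56, 4.51 and 5.53 CPM. The lowest *Tra2b-cPEko* value, in replicate C, lay above the highest wild type value, in replicate B. Means were 3.94 ± 0.276 and 5.44 ± 0.860 CPM (SD, n = 4 each), and the log2 fold change was 0.46 (SE 0.12, 95% interval 0.19 to 0.73, edgeR unadjusted p = 0.00261). A two-sided exact permutation test of the 70 arrangements of the 8 mice gave p = 0.0286, the smallest that 4 against 4 can give. Any gene without overlap between genotypes gets this p, and 8.54% of all tested genes had no overlap. Without *Tra2b-cPEko* replicate B the log2 fold change was 0.36 (edgeR adjusted p = 0.197), and leaving out each mouse in turn gave 0.36 to 0.54. Of the gene's 3780 bases, 63 overlap *Phrf1* on the other strand, a gene at 162.8 and 163.2 CPM in the 2 genotypes (log2 fold change 0.00). Whether the counting used strand is not given in the sources used here, so reads in that overlap cannot be assigned.

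*Rsad2* (chr12:26492745-26506451, minus strand) encodes viperin, a radical SAM enzyme that blocks viral RNA synthesis. Wild type replicates A to D were at 0.815, 0.662, 0.736 and 0.881 CPM, and *Tra2b-cPEko* replicates A to D at 1.08, 1.61, 1.13 and 0.899 CPM. The genotypes did not overlap, but *Tra2b-cPEko* replicate D lay just above wild type replicate D, and the raw counts were only 28 to 59. Means were 0.774 ± 0.0948 and 1.18 ± 0.302 CPM (SD, n = 4 each), with a log2 fold change of 0.60 (SE 0.20, 95% interval 0.17 to 1.03, edgeR unadjusted p = 0.0103). The two-sided exact permutation test gave p = 0.0286, which follows from the lack of overlap alone. Without *Tra2b-cPEko* replicate B the log2 fold change was 0.42 (edgeR adjusted p = 0.316), and leaving out each mouse in turn gave 0.42 to 0.70. DESeq2 gave *Rsad2* an adjusted p of 0.222.

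*Ifit1* and *Ifit3* lie in one cluster of related genes on chromosome 19 (chr19:34618271-34632174 and chr19:34560899-34566443, both plus strand) and encode proteins that bind viral RNA and block its translation. *Ifit1* was at 0.860, 0.544, 0.463 and 0.339 CPM in wild type replicates A to D. In *Tra2b-cPEko* testes it was at 0.401, 1.498, 0.299 and 0.218 CPM. Replicate B was the highest of all 8 mice, and the other 3 *Tra2b-cPEko* mice lay below wild type replicates A, B and C. The genotype difference had a wide interval, with a log2 fold change of 0.11 (SE 0.61, 95% interval -1.28 to 1.504, edgeR adjusted p = 0.951). Without replicate B it turned to -0.80 (edgeR unadjusted p = 0.0421, adjusted p = 0.317), with a *Tra2b-cPEko* mean of 0.306 ± 0.0917 CPM (SD, n = 3) against 0.551 ± 0.222 CPM (SD, n = 4) in wild type. The whole of *Ifit1* lies inside *Ifit1bl2* on the other strand, which had 1 to 8 reads a library.

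*Ifit3* showed the same mouse apart from an otherwise narrow set. Wild type replicates A to D were at 0.996, 1.16, 1.20 and 1.17 CPM, and *Tra2b-cPEko* replicates A to D at 0.962, 2.42, 1.11 and 0.899 CPM. The 7 mice other than *Tra2b-cPEko* replicate B thus lay between 0.899 and 1.20 CPM. The log2 fold change was 0.24 (SE 0.29, 95% interval -0.39 to 0.87, edgeR adjusted p = 0.729) with all mice and -0.19 (edgeR adjusted p = 0.638) without that replicate. *Ifit3b*, a near-identical copy with which *Ifit3* may share reads, was also highest in replicate B of *Tra2b-cPEko*, at 1.12 CPM against 0.288 to 0.581 CPM in the other 7 mice.

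*Isg15* (chr4:156283883-156285303, minus strand) encodes a ubiquitin-like protein that is attached to other proteins during the interferon response. It was at 0.475, 0.757, 0.547 and 0.542 CPM in wild type and 0.481, 1.14, 0.534 and 0.545 CPM in *Tra2b-cPEko* replicates A to D. Replicate B was highest in each genotype, and the remaining 6 mice lay between 0.475 and 0.547 CPM. The log2 fold change was 0.20 (SE 0.29, 95% interval -0.42 to 0.82, edgeR adjusted p = 0.775), and without *Tra2b-cPEko* replicate B it was -0.16 (edgeR adjusted p = 0.791). *Gm46878* overlaps 726 of the gene's 1421 bases on the other strand and had 7 to 12 reads a library. *Isg15* also has a near-identical copy, *Gm9706*, which was not analysed here.

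*Ifi44* (chr3:151436559-151455625, minus strand) encodes a cytoplasmic protein named for its induction by interferon. It was at 0.701, 0.544, 0.400 and 0.288 CPM in wild type and 0.541, 0.436, 0.449 and 0.436 CPM in *Tra2b-cPEko* replicates A to D. Unlike *Ifit1*, *Ifit3* and *Isg15*, it was not raised in *Tra2b-cPEko* replicate B, where it was at 0.908 times the mean of the other 7 mice. The log2 fold change was -0.02 (SE 0.27, 95% interval -0.62 to 0.57, edgeR adjusted p = 0.980) on 16 to 31 reads a library.

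*Stat2* (chr10:128106352-128128735, plus strand), the subunit that gives the interferon transcription complex its activation domain, was the most even member. It was at 33.7, 35.6, 34.1 and 33.8 CPM in wild type and 35.96, 36.9, 34.7 and 33.8 CPM in *Tra2b-cPEko* replicates A to D. The genotypes overlapped over most of the range, and the 95% interval of the log2 fold change of 0.04 ran from -0.06 to 0.15 (edgeR adjusted p = 0.715). *Bst2* (chr8:71986895-71990114, minus strand) encodes tetherin, a membrane protein that holds budding virus at the cell surface. It was at 19.6, 21.4, 19.7 and 18.4 CPM in wild type and 19.2, 20.2, 17.2 and 18.2 CPM in *Tra2b-cPEko* replicates A to D, again with overlap. Its log2 fold change was -0.08 (95% interval -0.24 to 0.07, edgeR adjusted p = 0.594). *Oasl2* (chr5:115034997-115050295, plus strand) encodes a protein of the oligoadenylate synthetase family, which senses double-stranded RNA. It was at 26.8, 23.7, 24.5 and 26.7 CPM in wild type and 25.1, 29.1, 22.7 and 23.3 CPM in *Tra2b-cPEko* replicates A to D. Replicate B of *Tra2b-cPEko* was highest and the other 3 lay within or below the wild type range, and the log2 fold change was -0.02 (95% interval -0.20 to 0.15, edgeR adjusted p = 0.917). The 95% intervals of these 3 genes together ran from -0.24 to 0.15.

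**Figure D3:**
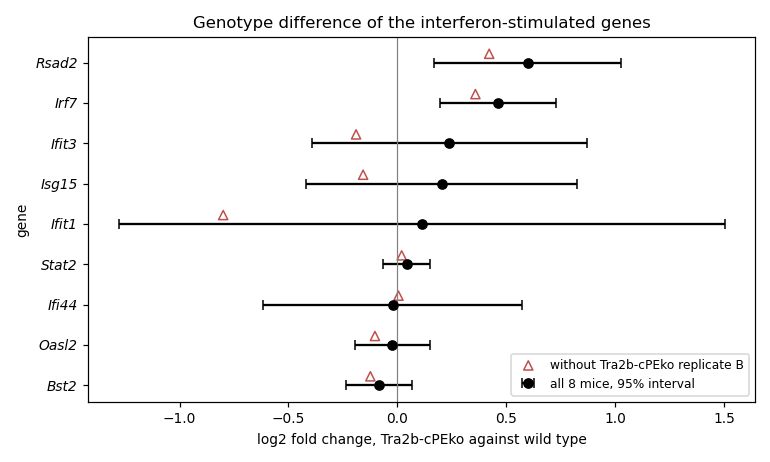
Log2 fold change of each gene in *Tra2b-cPEko* against wild type (horizontal axis), with filled circles and 95% intervals for all 8 mice and open triangles for the fit without *Tra2b-cPEko* replicate B. The intervals of *Rsad2* and *Irf7* lie above 0, and the triangles of *Ifit1*, *Ifit3* and *Isg15* fall on the other side of 0 from the circles, as does that of *Ifi44* by a smaller distance (-0.02 and 0.01).

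*Tra2b-cPEko* replicate B was the highest of the 8 mice in 7 of the 9 members (77.8%), against 9.81% of all tested genes. The exceptions were *Bst2*, highest in wild type replicate B, and *Ifi44*, highest in wild type replicate A. Relative to the mean of the other 7 mice, the level in replicate B was 3.36 times as high for *Ifit1*, 2.26 times for *Ifit3*, 2.06 times for *Isg15*, 1.81 times for *Rsad2* and 1.48 times for *Irf7*. The ratios of the abundant members were closer to 1, at 1.18 for *Oasl2*, 1.07 for *Stat2* and 1.06 for *Bst2*. The median ratio over the members was 1.48 in this mouse and 0.855 to 0.997 in the others, each computed the same way. Without it, the median log2 fold change of the members moved from 0.11 to -0.10, and *Irf7*, *Rsad2* (higher) and *Ifit1* (lower) had an unadjusted p under 0.05, against 14.9% of the 19516 genes tested then.

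The same mouse was highest in 29 of the 64 other type I interferon-stimulated genes tested (45.3%) and in 16 of 33 interferon gamma and antigen presentation genes (48.5%), as the plot of the highest mouse by list shows. It was also highest in 6 of 16 sensors and adaptors (37.5%). In the lists of receptors and kinases (1 of 9, 11.1%), transcription factors (1 of 9, 11.1%) and negative regulators (1 of 12, 8.33%) its share was near that of all tested genes. Its median ratio to the other mice was 1.12 over the other type I genes, 1.13 over the interferon gamma and antigen presentation genes and 0.995 over all tested genes. *Ifit2*, a relative of *Ifit1*, was at 5.64 CPM in this mouse against 2.63 to 4.28 CPM in the other 7. *Mx1* was at 0.708 CPM against 0.327 to 0.588 CPM, on 12 to 26 reads a library. *Usp18*, the protease that removes ISG15 from proteins, was at 3.38 CPM against 2.202 to 3.19 CPM. *Oas1a* (0.763 CPM) lay within the range of the other mice, so not every gene of the family was raised.

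The genes outside the interferon lists whose log2 CPM over the 8 mice was most like the mean of the members' standardised log2 CPM were *Gm39960* (Pearson's r = 0.970), *Mdfi* (0.944), *Fbxw17* (0.936), *Gm38811* (0.936) and *5430401H09Rik* (0.935), compared over the 15348 genes that averaged 1 CPM or more. All 5 were highest in *Tra2b-cPEko* replicate B, and the members' profile itself was 1.56 in that mouse and between -0.504 and 0.151 in the others. These r values are a description over 8 mice in which 1 mouse lay apart.

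**Figure D4:**
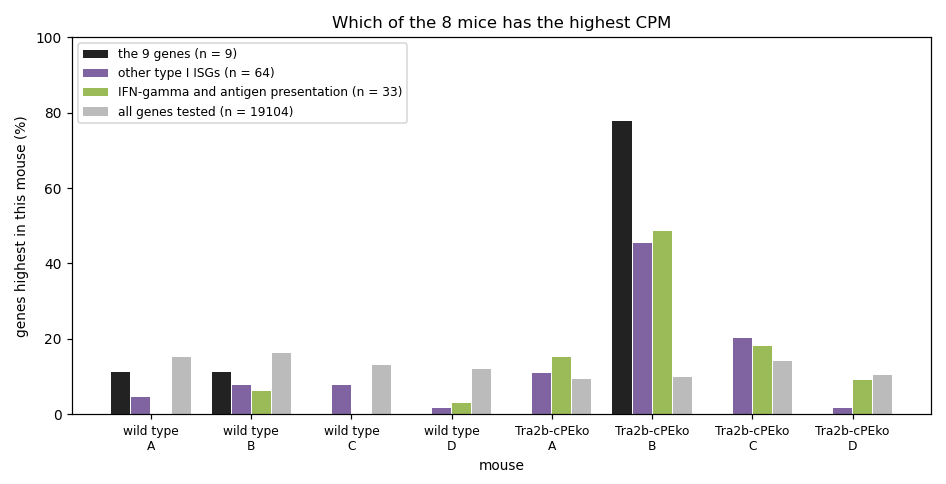
Percentage of genes (vertical axis) that were highest in each of the 8 mice (horizontal axis), for the 9 genes, 2 lists of other interferon-responsive genes and all 19104 genes tested. *Tra2b-cPEko* replicate B holds the highest value for 77.8% of the 9 genes and 9.81% of all genes.

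Markers of other cells differed in this mouse as well. Of the 7 monocyte and neutrophil markers, 2 passed the filter, and both were highest there: *Ccr2*, a chemokine receptor of monocytes, at 3.19 CPM against 1.42 to 2.29 CPM in the others, and *Csf3r*. The summed level of this list was 4.30 CPM in replicate B, 2.15 to 3.73 CPM in wild type and 1.88 to 4.30 CPM over all *Tra2b-cPEko* mice, while *Ly6g*, a defining neutrophil marker, had no read in any mouse and *Ly6c2* had none in replicate B. The 13 macrophage markers summed to 212 CPM in replicate B, above the 155 to 194 CPM of wild type. The *Tra2b-cPEko* mice, replicate B among them, ran from 193 to 229 CPM. The Leydig cell markers summed to 626 CPM in replicate B, the highest of all mice, with *Star*, which delivers cholesterol for steroid synthesis, at 144 CPM against 36.2 to 99.1 CPM. The part of these cells in the interferon values was not tested.

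Counts on interferon ligand genes were at or near 0. Of 21 interferon ligand genes, 16 had no read in any of the 8 libraries, among them *Ifnb1* and every *Ifna* gene listed. The remaining 5, *Ifnk*, *Ifne*, *Ifng*, *Ifnl2* and *Ifnl3*, had at most 5 reads in a mouse. A count of 0 allows up to 3 counts, which is 0.0508 to 0.0817 CPM at these depths, so lower ligand levels were not detectable, and these floors cover counting error only. Near-identical copies were searched for the members alone, so a loss of reads shared between ligand genes was not tested. No ligand passed the filter on low counts.

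The 9 receptors and kinases that carry the signal all passed the filter on low counts. By edgeR 0 of the 9 passed the test, with 1 at an unadjusted p under 0.05 and 1 called by DESeq2. The gene was *Ifnlr1* in each case, the receptor subunit for interferon lambda, which was at 3.48 ± 0.363 CPM in wild type and 4.89 ± 0.378 CPM in *Tra2b-cPEko* (SD, n = 4 each) without overlap (log2 fold change 0.49, edgeR adjusted p = 0.101). *Ifnar1* and *Ifnar2*, the type I receptor subunits, differed by -0.05 and 0.08 on the log2 scale. *Jak1* was at 366 and 384 CPM in the 2 genotypes, and *Tyk2* at 73.2 and 68.6 CPM. Among 9 tested transcription factors outside the members, 0 passed the test by edgeR or DESeq2, and 2 had an unadjusted p under 0.05, *Irf2* and *Stat3*, at log2 fold changes of 0.16 and 0.12. *Irf9*, which joins STAT2 on DNA, differed by -0.05, and *Irf3*, which switches on *Ifnb1* after sensing, by -0.14 (edgeR unadjusted p = 0.151). Wild type replicate B was at 83.5 CPM for *Irf3*, against 59.6 to 66.6 CPM in the other wild type mice and 60.3 to 65.35 CPM in *Tra2b-cPEko*. By edgeR none of the receptors, kinases and transcription factors passed the adjusted threshold. Over all tested genes, 15.3% had an unadjusted p under 0.05, and DESeq2 called 2.79% of those to which it gave an adjusted p.

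Of the 16 sensors and adaptors that detect foreign nucleic acid, 15 had a positive log2 fold change (median 0.14), against 49.7% of all tested genes. By edgeR or DESeq2 0 were called, and 2 (12.5%) had an unadjusted p under 0.05, against 15.3% of all tested genes. These 2 were *Ifih1*, which encodes the RNA sensor MDA5 (log2 fold change 0.18, edgeR adjusted p = 0.258), and *Sting1*, the adaptor for cytosolic DNA (0.37, edgeR adjusted p = 0.261). *Ddx58*, the older symbol of *Rigi* for the RNA sensor RIG-I, was at 10.6 and 11.9 CPM, and *Mavs*, the adaptor of both RNA sensors, at 71.5 and 72.5 CPM. The 12 tested negative regulators had a median of 0.02, with 1 higher and 1 lower at an unadjusted p under 0.05 (16.7%, against 15.3% of all tested genes). The higher was *Ptpn6*, a phosphatase of blood cells, at 4.08 and 5.54 CPM (log2 fold change 0.44, edgeR adjusted p = 0.114). The lower was *Rnaseh2b*, a subunit of the enzyme that removes ribonucleotides from DNA, at 27.7 and 24.2 CPM (-0.19, edgeR adjusted p = 0.148). DESeq2 called both.

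The 64 other type I interferon-stimulated genes tested had a median log2 fold change of 0.12, with 54 positive. By edgeR 0 passed the adjusted threshold, 12 were higher and 0 lower at an unadjusted p under 0.05, and DESeq2 called 4, all higher (*Slfn5*, *Xaf1*, *Ifitm3* and *Lgals3bp*). Over all tested genes, 8.22% were higher and 7.07% lower at that unadjusted p, and DESeq2 called 2.79%. The gene nearest the threshold was *Slfn5*, a member of the Schlafen family, which was at 14.9, 11.7, 14.5 and 14.2 CPM in wild type and 17.4, 17.9, 21.4 and 17.3 CPM in *Tra2b-cPEko* replicates A to D. The genotypes did not overlap, and the log2 fold change was 0.42 (edgeR adjusted p = 0.0892). *Xaf1*, which encodes an interferon-induced regulator of apoptosis, was at 6.40 ± 0.729 and 8.67 ± 0.675 CPM (SD, n = 4 each, log2 fold change 0.44, edgeR adjusted p = 0.101). Unlike *Ifit1* and *Ifit3*, *Slfn5* and *Xaf1* were not highest in replicate B but in replicate C of *Tra2b-cPEko*. *Adar* and *Eif2ak2*, which edit and sense double-stranded RNA, had log2 fold changes of 0.06 and 0.20.

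The 33 interferon gamma and antigen presentation genes had a median of 0.15, with 28 positive, 11 higher and 0 lower at an unadjusted p under 0.05, and 0 called by edgeR or DESeq2. *Gbp5*, an interferon gamma-induced GTPase, was at 0.893 and 1.31 CPM (log2 fold change 0.55, edgeR adjusted p = 0.179), and *Psmb8*, a subunit of the immunoproteasome, at 2.59 and 3.39 CPM (0.39, edgeR adjusted p = 0.201). Over all 141 pathway genes tested outside the members, 114 (80.9%) had a positive log2 fold change, against 49.7% of all tested genes, and 28 were higher (19.9%) and 1 lower at an unadjusted p under 0.05, against 8.22% and 7.07% of all tested genes. The median was 0.09 with all mice and 0.07 without *Tra2b-cPEko* replicate B, when 20 were higher and 2 lower. Genes are not independent replicates, and the lists share *Ifih1* and *Usp18*.

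**Figure D5:**
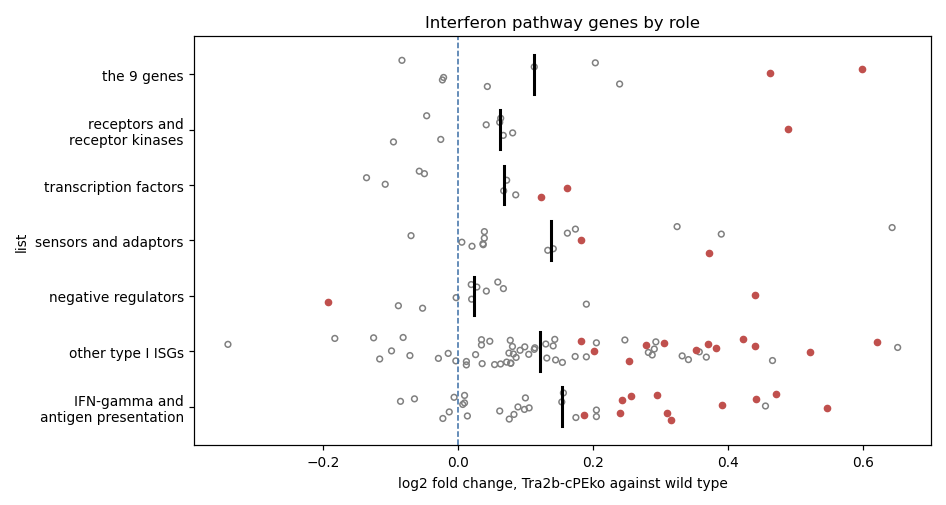
Log2 fold change in *Tra2b-cPEko* against wild type (horizontal axis) of each tested gene, by list (vertical axis), with filled red points at an unadjusted edgeR p under 0.05, open points for the rest and a black bar at each list's median. Medians lie between 0.02 and 0.15, and no point passed edgeR's adjusted threshold, while DESeq2 called *Irf7* and 7 of the other genes.

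Markers of several cell types leaned in 1 direction between genotypes beside these lists, though edgeR called none of them. All 13 tested macrophage markers had a positive log2 fold change (median 0.24), against 49.7% of all tested genes, and 6 were higher at an unadjusted p under 0.05, against 8.22%. By edgeR 0 were called, and DESeq2 called *Cx3cr1* and *Csf1r*, against 2.79% of the genes it tested. The summed macrophage level was 155 to 194 CPM in wild type and 193 to 229 CPM in *Tra2b-cPEko*, with a small overlap. Replicate C of *Tra2b-cPEko* was highest in 8 of the 13 macrophage markers. Of 6 Leydig cell markers, 5 were positive (median 0.43), and *Lhcgr*, the luteinising hormone receptor, was at 24.1 and 33.1 CPM (edgeR adjusted p = 0.131, DESeq2 adjusted p = 0.00851). Summed Leydig levels were 358 to 438 CPM in wild type and 393 to 626 CPM in *Tra2b-cPEko*. The 626 CPM was that of replicate B, without which the median log2 fold change of the Leydig markers was 0.29. All 5 peritubular myoid markers were positive (median 0.09), with 2 at an unadjusted p under 0.05, *Myh11* and *Tagln*, and 3 of the 5 were highest in *Tra2b-cPEko* replicate C. In the other direction, 7 of 8 germ cell markers (median -0.09) and 7 of 8 Sertoli cell markers (median -0.05) were negative, each list with 1 at an unadjusted p under 0.05, *Ddx4* and *Amh*. Germ cell markers summed to 1828 to 2170 CPM in wild type and 1802 to 1831 CPM in *Tra2b-cPEko*. Wild type replicate A was at 2170 CPM and highest in 6 of the 8 germ cell markers, while wild type replicates C and D were at 1832 and 1828 CPM. Sertoli cell markers summed to 1563 to 1704 CPM in wild type and 1419 to 1655 CPM in *Tra2b-cPEko*. Replicate C of *Tra2b-cPEko* was at 1419 CPM and lowest in 6 of the 8 Sertoli cell markers.

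Dendritic cell markers had 3 of 6 members tested, with 1 positive and 2 negative log2 fold changes (median -0.04). The positive marker was *Flt3*, which was higher at an unadjusted p under 0.05 (log2 fold change 0.48, edgeR adjusted p = 0.252). Lymphocyte markers summed to 7.64 to 9.75 CPM and 7.76 to 9.10 CPM, and endothelial markers to 177 to 207 CPM and 183 to 207 CPM, with overlap in both. By edgeR no marker of any of these lists was called. The part of these cell types in the levels of *Irf7*, *Rsad2* and the other interferon-responsive genes was not tested. Germ, Sertoli and Leydig cell markers were present in every library, and the study describes the samples of both genotypes as testes.

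Reads on genes numbered 36757386 to 59101569 a library (66.42% to 69.03% of the reads in the tables). *Tra2b* itself was at 164 ± 8.93 CPM in wild type and 198 ± 8.49 CPM in *Tra2b-cPEko* (SD, n = 4 each, log2 fold change 0.27). It was higher in all 4 *Tra2b-cPEko* mice (190.3 to 209 CPM) than in any wild type mouse (156 to 176 CPM), with an adjusted p of 0.0552 by edgeR and 0.000195 by DESeq2. Gene counts cannot show the deletion of the poison exon itself.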

How the data were processed

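Total RNA of whole P12 testes was made into libraries with a stranded mRNA kit and sequenced as 100 base paired-end reads. Raw counts per gene were deposited by the authors, with a table for each mouse. The submitters' processing notes list HISAT2 2.2.1, SAMtools 1.7.1, HTSeq 2.0.2 and deepTools 3.5.1 with GRCm39. The methods name Salmon and DESeq2 for expression. Whether counting used strand is not given in the sources used here. The 5 summary lines, 31.0% to 33.6% of reads, were left out.

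Counts were fitted in R 4.3.3 with edgeR 4.0.16 (filterByExpr with least count 10 and least total 15, TMM, robust quasi-likelihood, genotype as the only term), and the fit was tested on simulated data. DESeq2 1.42.0 and limma 3.58.1 (voom) were alternatives, with other scalings, filters, thresholds, a replicate block and each mouse left out. Gene positions are GENCODE vM39, and copies at 95% identity over 50% of length were found with BLAST+ 2.17.0. The members and lists were chosen with earlier results of these data known. Genes were named from the members, core pathway genes chosen by name, the 2 genes of each list with the smallest p among those with a mean of at least 1 CPM, and the 5 with the most similar profile. One core pathway gene is not reported here, and lymphocyte and endothelial markers are given as sums. *Ifitm3*, *Lgals3bp*, *Csf3r*, *Ly6g*, *Ly6c2* and the ligands were named after their values were seen.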

Additional observations from a re-analysis of the deposited data

Results flagged for a closer look

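In 3 members, replicate B lay far from the other *Tra2b-cPEko* mice: *Ifit1* at 1.498 CPM against 0.218 to 0.401, *Ifit3* at 2.42 CPM against 0.899 to 1.11, and *Isg15* at 1.14 CPM against 0.481 to 0.545. *Ifi44* was at 0.541 CPM in *Tra2b-cPEko* replicate A against 0.436 to 0.449 CPM in the other 3, a gap of a few reads. *Slfn5* was at 21.4 CPM in *Tra2b-cPEko* replicate C against 17.3 to 17.9 CPM. *Oas1a* was at 0.996 CPM in wild type replicate A against 0.821 to 0.847 CPM. *Tagln*, a smooth muscle marker, was at 89.9 CPM in wild type replicate D, below the 102.3 to 102.6 CPM of the other 3. Each gap, as a share of the group's range, exceeded Dixon's 95% critical value for 4 samples. Of 148 groups tested, 7 exceeded it, and chance gives about 7.4.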

How the results depend on the processing

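*Irf7* kept a higher level in *Tra2b-cPEko* under every alternative run, and *Rsad2* under every run that tested it. The filter on mean counts left *Rsad2* out. DESeq2 alone called a member (1, *Irf7*, adjusted p = 0.0386). The 30 genes called by edgeR became 123 with no filter on low counts, 58 with upper-quartile scaling, 14 with a mean count of at least 50, 507 with DESeq2, 11 with limma-voom, 12 without robust estimation, 156 at an adjusted p under 0.1 and 3 at 0.01. Leaving out 1 mouse gave 3 to 84. Pathway genes outside the members called were 0, but 1 (*Slfn5*) without the filter, 1 at 0.1 and 7 with DESeq2. No pairing of the mice by replicate letter was seen (correlations of same-letter deviations -0.135 to 0.116, and only letter D correlated best with itself). These few correlations cannot exclude a pairing. The replicate block called 67 genes, 0 members, and moved *Ifit1* to -0.11. With limma-voom, *Ifit1* was at -0.21 and *Ifi44* at 0.0655. Leaving out 1 mouse, the log2 fold change ran from -0.80 to 0.41 for *Ifit1*, -0.19 to 0.38 for *Ifit3*, -0.16 to 0.35 for *Isg15*, -0.10 to 0.0189 for *Oasl2* and -0.23 to 0.21 for *Ifi44*, and the members' median from -0.10 (without *Tra2b-cPEko* replicate B) to 0.30. The filter on mean counts kept 5 members. The causes were not tested. Counts of 8 to 89 reads limit *Ifit1*, *Ifit3*, *Isg15*, *Ifi44* and *Rsad2*.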
